A study of Mus musculus with 15 samples.

Results

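The 9 genes described here build or hold the junction between basal keratinocytes and the basement membrane, and they were followed in 12 libraries of mouse skin. They are Itga6, Itgb4, Plec, Dst, Cd151, Itga3, Itgb1, Lama3 and Lamb3, taken by gene name, and all 9 were found among the 54532 rows of the deposited skin table. The 4 groups of 3 libraries each were Trpv3-knockout skin given MC903 for 7 days, wild type skin given MC903 for 7 days, Trpv3-knockout skin without treatment and wild type skin without treatment. MC903, or calcipotriol, is a vitamin D analogue that is applied to mouse skin as a model of atopic dermatitis. TRPV3 is a cation channel of keratinocytes, and the comparison asks how the treated skin depends on it. The series describes its mutants as conditional knockouts, and the labels name neither the cells in which Trpv3 was deleted nor a strain, sex, age, body site or vehicle, so that the untreated skin is a control without a stated vehicle. Nothing in the labels ties the 3 libraries of a group to different animals. Each p-value therefore reflects how far these libraries scatter, and that scatter may be technical only. A further 3 samples, of dorsal root ganglion, were not analysed here.

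A hemidesmosome is a rivet at the base of a basal keratinocyte. Integrin α6β4, the product of Itga6 and Itgb4, crosses the membrane, binds laminin-332 outside the cell and is tied inside it by plectin and by the epithelial form of dystonin (BP230) to the keratin filaments. Integrin α3β1 binds the same laminin but joins the actin cytoskeleton, and both integrins associate with the tetraspanin CD151. In people, loss of several of these proteins causes skin to blister under friction.

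Values are FPKM, fragments per kilobase of gene, so levels of different genes can be compared per length. They were scaled between libraries by a factor that was not the total of assigned reads, as given under processing. Read counts recovered from the values amounted to 16869716 to 18485698 reads per library, and the members were covered by between 532 reads (Lama3, lowest library) and 13377 reads (Dst, highest library). Differences were tested with limma on log2(FPKM + 0.5) over all 4 groups, with p-values adjusted over all 17646 genes tested and a threshold of 0.05, and the words rose, fell, higher and lower are used of genes below it. Up to 23 alternative settings were run for each comparison. In 2 of these each library was rescaled to 1 common sum (TPM scaling) or divided by its assigned reads (total-read scaling).

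Trpv3 itself had 6.82, 6.78 and 4.73 FPKM in the MC903-treated libraries labelled knockout, against 16.1, 17.0 and 19.0 FPKM in MC903-treated wild type skin (log2 fold change −1.45 ± 0.22 SE, limma adjusted p = 0.00032). Without treatment it had 3.17, 3.64 and 2.62 FPKM in the libraries labelled knockout, against 2.06, 2.71 and 1.13 FPKM in wild type skin (0.61 ± 0.22, adjusted p = 0.10). At rest the level thus did not separate the genotypes in the direction of the labels, and a level summed over all exons does not show whether part of the gene was removed. The groups are called knockout and wild type after their labels. Markers of skin cell types differed in level between groups. Summed over 8 markers of basal keratinocytes, the level was 4937 to 6520 FPKM in MC903-treated knockout skin and 15660 to 22400 FPKM in MC903-treated wild type skin, against 2896 to 3349 FPKM in untreated knockout skin and 2400 to 2572 FPKM in untreated wild type skin. Fibroblast markers summed to 1850 to 2378 FPKM in treated knockout and 613 to 745 FPKM in treated wild type skin, against 4749 to 5434 FPKM in untreated knockout and 1296 to 2300 FPKM in untreated wild type skin. Skeletal muscle markers summed to 622 to 961 FPKM in treated knockout and 1739 to 2435 FPKM in treated wild type skin, against 1892 to 2495 FPKM in untreated knockout and 2531 to 4886 FPKM in untreated wild type skin. Suprabasal keratinocyte markers summed to 1370 to 2489 FPKM in treated knockout and 2745 to 7363 FPKM in treated wild type skin, against 3231 to 3718 FPKM in untreated knockout and 1191 to 2048 FPKM in untreated wild type skin. A sum mostly follows its highest genes, and markers of 1 list did not all move alike. With MC903 in knockout skin 5 of 8 basal markers rose and 2 fell, and 3 of 8 suprabasal markers rose and 4 fell. In wild type skin 7 basal markers rose and 1 fell, and 5 suprabasal markers rose and 0 fell. Of all genes, 25% rose and 23% fell in knockout skin, and 32.6% and 30.3% in wild type skin. No marker of these 4 lists was at 0 in any library. In whole skin, fewer cells of a type and less RNA per cell cannot be told apart, and the part of cell make-up in the results below was not tested.

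The order of the 9 genes was led everywhere by Itgb1, the common β1 chain of many integrins and of many cell types, and closed by Lama3. In untreated wild type skin the mean levels were 103 ± 7.94 FPKM for Itgb1, 48.6 ± 9.79 for Cd151, 23.7 ± 1.23 for Plec, 22.2 ± 4.39 for Itga6, 15.4 ± 1.10 for Itgb4, 14.5 ± 2.02 for Lamb3, 13.8 ± 2.66 for Dst, 7.30 ± 0.22 for Itga3 and 3.28 ± 0.60 for Lama3 (SD, n = 3). In that order Plec and Itga6 overlapped, as did Itgb4 and Lamb3, and Lamb3 and Dst. After MC903 Itga3 moved up the order. It stood eighth in untreated skin of both genotypes, sixth in MC903-treated knockout skin at 14.7 ± 1.33 FPKM and at rank 5 in MC903-treated wild type skin at 26.2 ± 0.94 FPKM. The spread over the 12 libraries was widest for Itga3, whose highest library had 3.94 times the level of its lowest, and narrowest for Plec, at 1.43 times.

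**Figure D1:**
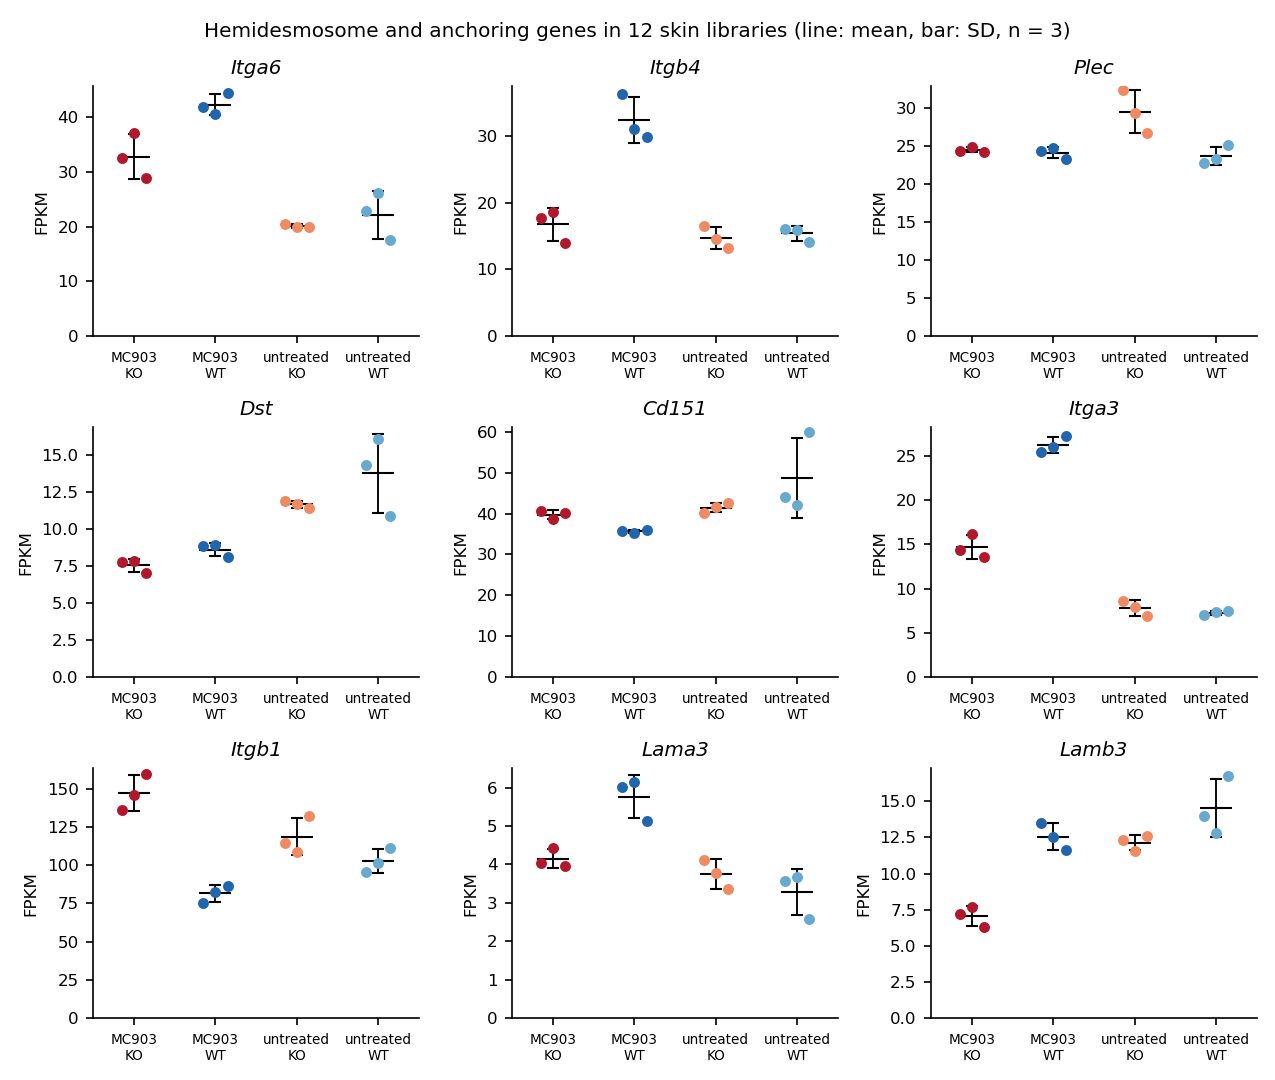
FPKM of the 9 genes (vertical axes, from 0) in the 12 skin libraries, with 1 point per library, the group mean as a line and the SD as a bar (n = 3; KO, knockout; WT, wild type). Itga6, Itgb4, Itga3 and Lama3 are highest in MC903-treated wild type skin, Itgb1 is highest in MC903-treated knockout skin, and Lamb3 and Dst are lowest in MC903-treated knockout skin.

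Of the 2 chains of the hemidesmosomal integrin, Itga6 rose with MC903 in both genotypes and Itgb4 in wild type skin, with a response that differed between the genotypes. Itga6 (ENSMUSG00000027111, chr2:71745616-71858416, plus strand, mm10 as for all gene positions here), the α6 chain, had 32.4, 37.0 and 28.8 FPKM in MC903-treated knockout skin and 41.8, 40.6 and 44.3 FPKM in MC903-treated wild type skin. Untreated knockout skin had 20.5, 19.9 and 19.8 FPKM of Itga6, and untreated wild type skin had 22.8, 26.2 and 17.5 FPKM. Every treated library lay above every untreated one, and the genotypes overlapped only at rest. Itga6 rose with MC903 in knockout skin (log2 fold change of FPKM + 0.5, 0.69 ± 0.13 SE, adjusted p = 0.0015) and in wild type skin (0.93 ± 0.13, adjusted p = 9.5e-05), and these 2 changes were not shown to differ (−0.25 ± 0.19, adjusted p = 0.32). After MC903 it was lower in knockout than in wild type skin (−0.37 ± 0.13, adjusted p = 0.037). That last call did not hold under 9 of 23 alternative settings. It was lost without MC903 knockout library 1 (−0.36, adjusted p = 0.080) or 3 (−0.28, 0.13), without MC903 wild type library 1 (−0.37, 0.074), 2 (−0.40, 0.057) or 3 (−0.33, 0.099) and without untreated knockout library 2 (−0.37, 0.050), with no filter on low values (−0.37, 0.063), and under TPM (−0.07, 0.71) and total-read (−0.27, 0.12) scaling.

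Itgb4 (ENSMUSG00000020758, chr11:115974709-116008412, plus strand), the β4 chain that is found only with α6 and carries the long tail to which plectin binds, was the other chain. Its level was 17.7, 18.6 and 14.0 FPKM in MC903-treated knockout skin and 36.3, 31.1 and 29.8 FPKM in MC903-treated wild type skin. Untreated skin had 16.5, 14.5 and 13.2 FPKM in knockout and 16.1, 16.0 and 14.1 FPKM in wild type libraries. The 3 treated wild type libraries stood alone, and the other 9 libraries overlapped between 13.2 and 18.6 FPKM. Itgb4 rose with MC903 in wild type skin (1.04 ± 0.12, adjusted p = 2.5e-05), while in knockout skin the change was 0.18 ± 0.12 (adjusted p = 0.27). The difference of the responses passed its own test (−0.87 ± 0.17, adjusted p = 0.0029), and so did knockout against wild type after MC903 (−0.93 ± 0.12, adjusted p = 0.00011). At rest the genotypes differed by −0.07 ± 0.12 (adjusted p = 0.78). Of its exon bases 537, or 7.66%, are shared with B230344G16Rik on the opposite strand, which reached at most 0.857 FPKM. Whether strand was used in counting is not given in the sources used here.

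Among the plaque proteins that link the integrin to keratin, Plec moved little and Dst fell. Plec (ENSMUSG00000022565, chr15:76170974-76232574, minus strand) encodes plectin, a giant linker that is also abundant in muscle and many other cells. It had 24.3, 24.9 and 24.3 FPKM in MC903-treated knockout skin and 24.4, 24.7 and 23.3 FPKM in MC903-treated wild type skin. In untreated skin the values were 32.4, 29.3 and 26.7 FPKM in knockout and 22.7, 23.3 and 25.1 FPKM in wild type libraries. Only untreated knockout skin stood apart, with all 3 libraries above the other 9. Plec was higher in knockout than in wild type skin at rest (0.31 ± 0.08, adjusted p = 0.031) and fell with MC903 in knockout skin (−0.26 ± 0.08, adjusted p = 0.019), whereas the change in wild type skin was 0.03 ± 0.08 (adjusted p = 0.79) and the difference of responses did not pass (−0.28 ± 0.11, adjusted p = 0.064). Neither call held with each library left out in turn. The difference at rest was lost without untreated knockout library 1 (0.24, adjusted p = 0.12) or 2 (0.31, 0.097) and without untreated wild type library 1 (0.28, 0.090) or 2 (0.30, 0.078), in a fit of these 2 groups alone (0.31, 0.12) and under total-read scaling (0.26, 0.058), and the fall was lost without MC903 knockout library 1 (−0.25, 0.053) and without untreated knockout library 1 (−0.19, 0.091) or 2 (−0.26, 0.051). The difference of responses passed without untreated knockout library 3 (−0.35, adjusted p = 0.030) or untreated wild type library 3 (−0.32, 0.032) and with library weights (−0.35, 0.012). At rest 7 of 8 adipocyte markers were lower, and 4 of 8 suprabasal keratinocyte and 5 of 8 fibroblast markers higher, in knockout than in wild type skin, where 4.55% of all genes were lower and 7.15% higher. The part of these markers in the Plec difference was not tested. Under TPM scaling Plec also fell in wild type skin (−0.44, adjusted p = 0.0010), and after MC903 it was higher in knockout than in wild type skin (0.32, 0.0115). Plec shares 205 of its exon bases, 1.13%, with Parp10 on the same strand.

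Dst (ENSMUSG00000026131, chr1:33908225-34308661, plus strand) encodes dystonin, whose epithelial form is BP230 and whose other forms serve nerve and muscle, and the gene-level values do not separate these forms. It had 7.76, 7.84 and 7.06 FPKM in MC903-treated knockout skin and 8.84, 8.94 and 8.09 FPKM in MC903-treated wild type skin. Untreated knockout skin had 11.9, 11.7 and 11.4 FPKM, and untreated wild type skin had 14.3, 16.1 and 10.9 FPKM. All 6 treated libraries lay below all 6 untreated ones. Dst fell with MC903 in knockout skin (−0.60 ± 0.12, adjusted p = 0.0018) and in wild type skin (−0.63 ± 0.12, adjusted p = 0.00078), and both calls held under each of 23 alternatives. The difference between these responses was 0.03 ± 0.17 (adjusted p = 0.90). Knockout and wild type libraries did not overlap after MC903, but the difference of −0.18 ± 0.12 did not pass (adjusted p = 0.23). At rest the genotypes differed by −0.21 ± 0.12 (adjusted p = 0.28), a difference that passed without untreated wild type library 3 (−0.37, adjusted p = 0.013) or with library weights (−0.28, 0.0065). Skeletal muscle and Schwann cell markers, from cell types that also use Dst, fell with MC903 in the same libraries: 10 of 10 muscle markers in knockout and 4 of 10 in wild type skin, and 7 of 8 Schwann cell markers in knockout and 8 of 8 in wild type skin passed as lower. Other lists fell too, so the falls were not particular to cell types that use Dst. Of 8 markers each, 8 fibroblast, 7 endothelial and 7 adipocyte markers passed as lower in wild type skin. In knockout skin 4 fibroblast, 2 endothelial and 6 adipocyte markers did, while 1 fibroblast and 2 endothelial markers rose. Of all genes tested, 23% passed as lower in knockout and 30.3% in wild type skin. The part of these markers in the fall of Dst was not tested.

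The chains of the actin-linked integrin α3β1 moved in opposite directions in wild type skin. Itga3 (ENSMUSG00000001507, chr11:95044474-95076801, minus strand), the α3 chain, had 14.4, 16.2 and 13.5 FPKM in MC903-treated knockout skin and 25.4, 25.9 and 27.2 FPKM in MC903-treated wild type skin. Without treatment the values were 8.65, 7.89 and 6.92 FPKM in knockout and 7.08, 7.32 and 7.52 FPKM in wild type libraries. The treated groups overlapped neither each other nor the untreated libraries. Itga3 rose with MC903 in knockout skin (0.87 ± 0.09, adjusted p = 2.9e-05) and more so in wild type skin (1.77 ± 0.09, adjusted p = 6.6e-08), where the mean was 3.59 times the untreated mean. The responses differed (−0.90 ± 0.13, adjusted p = 0.00045), as did knockout and wild type skin after MC903 (−0.82 ± 0.09, adjusted p = 3.8e-05). The genotypes at rest differed by 0.09 ± 0.09 (adjusted p = 0.58).

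Itgb1 (ENSMUSG00000025809, chr8:128685654-128733200, plus strand) is the β1 chain. It had 136, 146 and 159 FPKM in MC903-treated knockout skin and 75.6, 82.6 and 86.7 FPKM in MC903-treated wild type skin. Untreated skin had 115, 109 and 132 FPKM in knockout and 95.5, 102 and 111 FPKM in wild type libraries. Treated wild type skin was lowest and treated knockout skin highest, with no overlap with any other group. Itgb1 was higher in knockout than in wild type skin after MC903 (0.85 ± 0.10, adjusted p = 6.3e-05), and the responses differed (0.64 ± 0.15, adjusted p = 0.0054). With MC903 it rose in knockout skin (0.31 ± 0.10, adjusted p = 0.027) and fell in wild type skin (−0.33 ± 0.10, adjusted p = 0.015). At rest the genotypes differed by 0.20 ± 0.10 (adjusted p = 0.23), which passed with library weights (0.27, 0.016). The rise was lost without MC903 knockout library 2 (0.32, adjusted p = 0.063) or 3 (0.25, 0.094), without untreated knockout library 1 (0.29, 0.082) or 2 (0.25, 0.11) and under TPM (0.12, 0.32) and total-read (0.24, 0.065) scaling, and the fall without MC903 wild type library 1 (−0.28, 0.060). The β1 chain is made by fibroblasts, endothelium and muscle as well as by keratinocytes, and beside it 8 of 8 fibroblast, 6 of 8 endothelial and 8 of 8 Schwann cell markers were higher in knockout than in wild type skin after MC903, while 10 of 10 skeletal muscle markers were lower. Of all genes tested, 25.9% were higher and 26.1% lower in that comparison. The part of these markers in the Itgb1 difference was not tested.

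Promoter windows from RefSeq (GRCm38.p6, 250 bases before to 50 after an annotated start) were at hand for 5 of the 9 genes, and those of this pair are printed because its genes share a receptor but changed in opposite directions in wild type skin. Itga3 has windows on the minus strand at chr11:95076665-95076964 and, at an inner start, chr11:95069149-95069448, and Itgb1 has one on the plus strand at chr8:128685404-128685703. Capitals mark the GC box, GGGCGG, and in the inner Itga3 window also 1 match to TGANTCA, a loose AP-1 pattern, searched on both strands. N stands for any base. The match is TGAATCA, without the C or G that the AP-1 consensus has at N.
Itga3 outer start: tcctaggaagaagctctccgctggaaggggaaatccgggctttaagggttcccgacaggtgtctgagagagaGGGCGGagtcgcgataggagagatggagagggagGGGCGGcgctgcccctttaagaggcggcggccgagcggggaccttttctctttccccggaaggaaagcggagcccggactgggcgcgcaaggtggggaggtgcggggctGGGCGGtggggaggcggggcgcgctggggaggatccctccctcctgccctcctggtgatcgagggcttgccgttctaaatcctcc
Itga3 inner start: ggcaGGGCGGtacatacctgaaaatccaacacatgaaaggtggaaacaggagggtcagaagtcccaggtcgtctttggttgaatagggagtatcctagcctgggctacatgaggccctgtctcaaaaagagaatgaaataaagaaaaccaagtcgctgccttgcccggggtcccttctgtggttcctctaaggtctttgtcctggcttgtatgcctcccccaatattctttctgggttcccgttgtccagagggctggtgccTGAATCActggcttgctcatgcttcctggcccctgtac
Itgb1: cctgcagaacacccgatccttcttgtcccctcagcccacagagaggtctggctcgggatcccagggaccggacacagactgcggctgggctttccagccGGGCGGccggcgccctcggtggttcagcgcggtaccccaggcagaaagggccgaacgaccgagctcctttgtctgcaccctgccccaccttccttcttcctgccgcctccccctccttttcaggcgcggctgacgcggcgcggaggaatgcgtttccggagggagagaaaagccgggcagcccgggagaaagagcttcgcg
The outer Itga3 window held 3 GC boxes at 66.7% G and C, the inner one 1 GC box at 52.3%, and the Itgb1 window 1 GC box at 67.3%. Among all 32851 windows 35.7% held a GC box and 7.81% a match to the loose AP-1 pattern, and the median G and C content was 52.7%. None of the 9 windows of the 5 genes held a TATA box (TATAAA, 13.6% of all windows), a p63 core of a pair of CATG runs spaced by 6 bases (0.712%) or a direct repeat of the vitamin D receptor type (0.00609%), which says only that these letters are not in these windows.

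Cd151 (ENSMUSG00000025510, chr7:141467392-141471473, plus strand) encodes the tetraspanin that gathers α3β1 and α6β4 in the membrane. It had 40.5, 38.6 and 40.1 FPKM in MC903-treated knockout skin and 35.8, 35.1 and 36.0 FPKM in MC903-treated wild type skin. In untreated skin it had 40.2, 41.6 and 42.5 FPKM in knockout and 44.0, 42.1 and 59.9 FPKM in wild type libraries. Untreated wild type library 3 lay far above the rest. Cd151 fell with MC903 in wild type skin (−0.43 ± 0.11, adjusted p = 0.0064, and −0.27 without that library, adjusted p = 0.044), while the change in knockout skin was −0.06 ± 0.11 (adjusted p = 0.70). The responses were not shown to differ (0.37 ± 0.16, adjusted p = 0.089), although this difference passed without untreated wild type library 2 (0.46, adjusted p = 0.036), with library weights (0.26, 0.042) and under TPM (0.65, 0.0037) and total-read (0.51, 0.016) scaling. Knockout and wild type libraries after MC903 did not overlap, with a difference of 0.16 ± 0.11 (adjusted p = 0.27) that passed under TPM scaling (0.45, 0.0027) or without untreated wild type library 3, which moves only the estimate of spread (0.16, 0.032). At rest the genotypes differed by −0.21 ± 0.11 (adjusted p = 0.25).

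Laminin-332, the ligand of both integrins, is a trimer in which the α3 and β3 chains take part, and these chains did not move as one. Lama3 (ENSMUSG00000024421, chr18:12333819-12583013, plus strand), the α3 chain, had 4.04, 4.43 and 3.97 FPKM in MC903-treated knockout skin and 6.02, 6.15 and 5.12 FPKM in MC903-treated wild type skin. Untreated libraries had 4.12, 3.78 and 3.36 FPKM in knockout and 3.57, 3.69 and 2.59 FPKM in wild type skin. Treated wild type skin was above the other 9 libraries. Lama3 rose with MC903 in wild type skin (0.74 ± 0.13, adjusted p = 0.00039), with a change of 0.13 ± 0.13 in knockout skin (adjusted p = 0.42), and the responses differed (−0.61 ± 0.18, adjusted p = 0.020). After MC903 it was lower in knockout than in wild type skin (−0.43 ± 0.13, adjusted p = 0.015). Under TPM scaling none of these 3 passed (0.31, adjusted p = 0.097, −0.35, 0.22 and −0.15, 0.42), under total-read scaling the last 2 did not (−0.48, 0.072 and −0.34, 0.059), and the last was also lost without MC903 wild type library 1 (−0.40, 0.051) or 2 (−0.38, 0.053) and the difference of responses without untreated knockout library 1 (−0.54, 0.054). At rest the genotypes differed by 0.18 ± 0.13 (adjusted p = 0.39).

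Lamb3 (ENSMUSG00000026639, chr1:193207699-193343878, plus strand), the β3 chain, was lowest where Lama3 was not. It had 7.22, 7.66 and 6.30 FPKM in MC903-treated knockout skin and 13.5, 12.5 and 11.6 FPKM in MC903-treated wild type skin. Untreated knockout skin had 12.3, 11.5 and 12.6 FPKM, and untreated wild type skin had 14.0, 12.8 and 16.8 FPKM. Treated knockout skin lay below all other 9 libraries. Lamb3 fell with MC903 in knockout skin (−0.74 ± 0.11, adjusted p = 0.00024), a call that held under each of 23 alternatives, and was lower in knockout than in wild type skin after MC903 (−0.79 ± 0.11, adjusted p = 0.00014). In wild type skin the change with MC903 was −0.20 ± 0.11 (adjusted p = 0.13), which passed without untreated wild type library 2 (−0.28, adjusted p = 0.048) and under TPM (−0.66, 0.00017) and total-read (−0.40, 0.0027) scaling. The difference of responses passed (−0.55 ± 0.15, adjusted p = 0.015), except under TPM scaling (−0.27, 0.16). At rest the libraries of the genotypes did not overlap, but the difference of −0.24 ± 0.11 did not pass (adjusted p = 0.17), except with library weights (−0.20, 0.035).

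**Figure D2:**
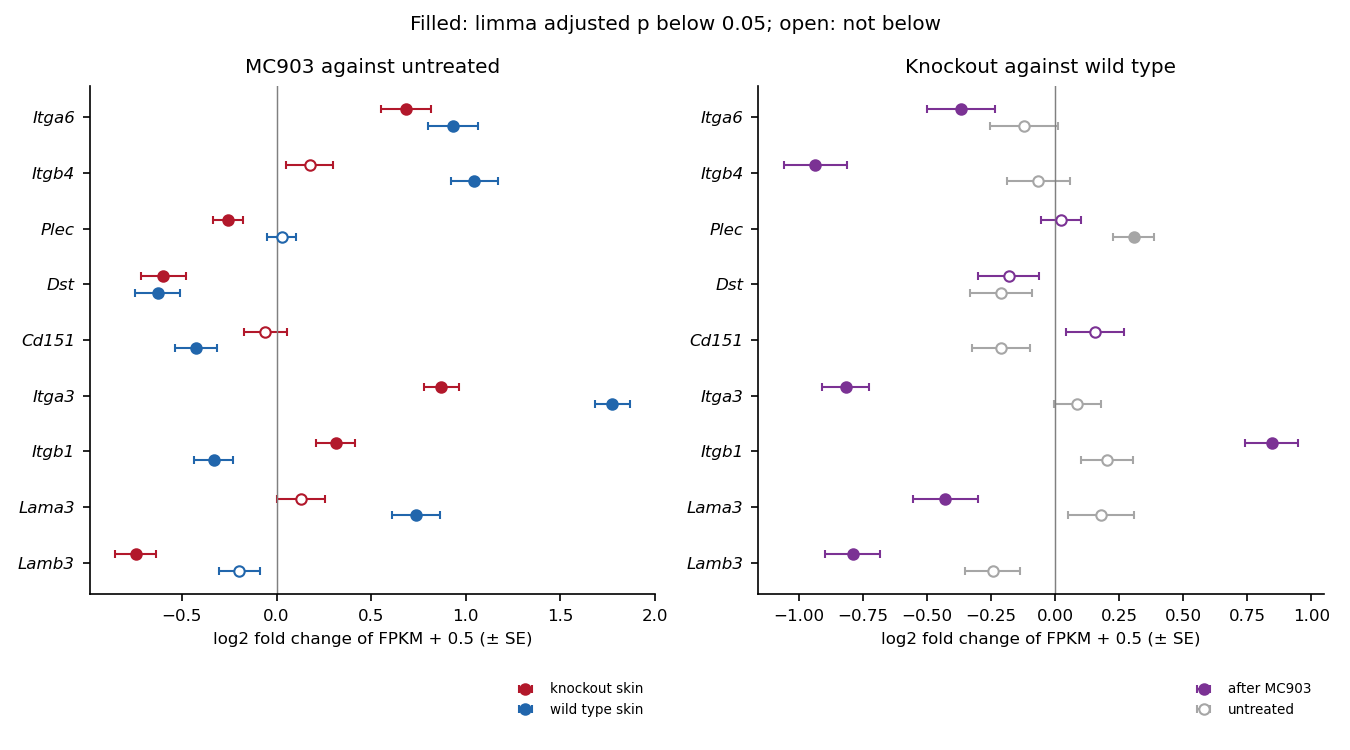
Log2 fold changes of FPKM + 0.5 (horizontal axes, ± SE from limma) of the 9 genes for MC903 against untreated skin (left) and for knockout against wild type skin (right), with filled points where the adjusted p was below 0.05. Itgb4 and Lama3 are filled on the left in wild type skin and not in knockout skin, Itgb1 lies on opposite sides of 0 in the genotypes, and Itga6, Itgb4, Itga3, Lama3 and Lamb3 are lower in knockout than in wild type skin after MC903.

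Counted over the comparisons, MC903 against untreated wild type skin changed 7 of the 9 genes, 4 up (Itga6, Itgb4, Itga3, Lama3) and 3 down (Dst, Cd151, Itgb1), where 63% of all 17646 genes tested were called, 32.6% as higher and 30.3% as lower. In knockout skin 6 of 9 changed, with 3 up (Itga6, Itga3, Itgb1) and 3 down (Plec, Dst, Lamb3), where 47.9% of genes were called, 25% as higher and 23% as lower. Between knockout and wild type skin at rest only Plec passed, as higher, with 11.7% of genes called, 7.15% as higher and 4.55% as lower. After MC903, 6 of 9 passed, 1 higher (Itgb1) and 5 lower (Itga6, Itgb4, Itga3, Lama3, Lamb3), with 52.1% of genes called, 25.9% as higher and 26.1% as lower. The libraries of the genotypes then did not overlap for 8 of the 9 genes, all but Plec, where 62.7% of all genes tested did not overlap. The response to MC903 differed between genotypes for 5 of 9, with Itgb1 higher and Itgb4, Itga3, Lama3 and Lamb3 lower in knockout skin, where 39.7% of genes were called, 20% as higher and 19.7% as lower. Against backgrounds of this size, counts out of 9 are read as values of these genes and not as a property of the group. The median log2 fold change of the 9 genes was 0.03 with MC903 in wild type skin, beside 0.02 over all genes, and 0.13 in knockout skin, beside −0.0014 over all genes. Between knockout and wild type skin it was −0.37 after MC903, beside −0.03, and −0.07 at rest, beside 0.01. For the difference of responses it was −0.28, beside −0.01.

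These directions depend on the scaling between libraries. Deposited values summed to 347798 to 354977 FPKM in MC903-treated knockout skin and 411163 to 455935 FPKM in MC903-treated wild type skin, against 302464 to 312604 FPKM in untreated knockout skin and 298412 to 325272 FPKM in untreated wild type skin. Rescaling each library to a common sum (TPM) moved the median change of all genes to −0.36 with MC903 in wild type skin, −0.16 with MC903 in knockout skin, 0.21 for knockout against wild type after MC903 and 0.22 for the difference of responses, and scaling by total reads moved them to −0.15, −0.06, 0.04 and 0.11. The genes called in these 4 comparisons were 5758 higher and 5351 lower, 4406 and 4051, 4575 and 4612, and 3527 and 3481 as deposited. With TPM they were 3070 and 8440, 2910 and 5759, 6685 and 2413, and 5386 and 2121, and with total reads 4451 and 6672, 3794 and 4605, 5175 and 3842, and 4476 and 2754. At rest, 1261 higher and 803 lower calls as deposited became 1057 and 1068 with total reads. Each rescaling shifts all genes of a comparison by nearly the same amount. In wild type skin under TPM scaling, Itga3 (1.31), Itgb4 (0.58), Itga6 (0.46) and Lama3 (0.31) stayed above 0, Plec (−0.44) was close to the median of all genes, and Lamb3 (−0.66), Itgb1 (−0.81), Cd151 (−0.90) and Dst (−1.08) lay below it.

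**Figure D3:**
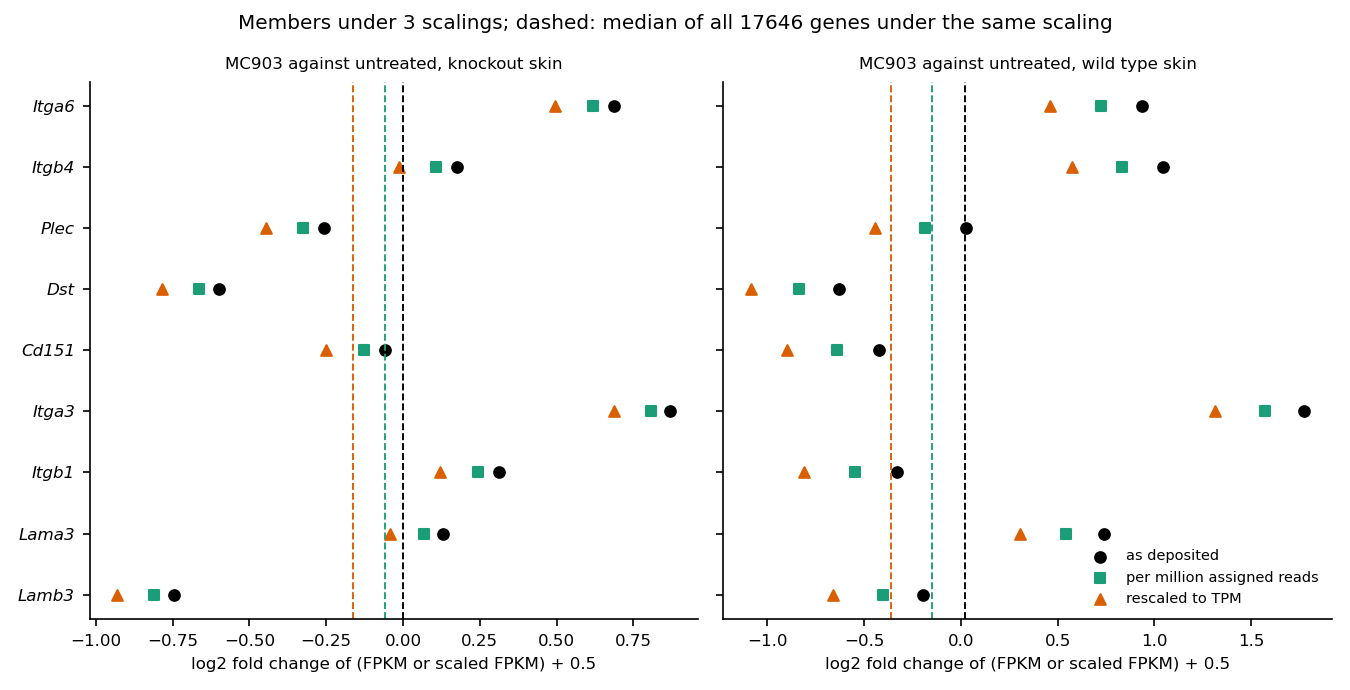
Log2 fold changes with MC903 of the 9 genes (horizontal axes) in knockout skin (left) and wild type skin (right) under the deposited scaling, with total-read scaling and rescaled to TPM, with dashed lines at the median of all 17646 genes under the same scaling. The points of each gene move with the dashed lines, by more in wild type than in knockout skin.

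Ratios between partner genes within a library are free of that scaling apart from the 0.5 added to each value. The ratio of Itgb4 to Itga6, the chains of α6β4, was 0.494 to 0.551 in MC903-treated knockout skin and 0.676 to 0.870 in MC903-treated wild type skin, against 0.673 to 0.810 in untreated knockout skin and 0.617 to 0.815 in untreated wild type skin. Treated knockout skin stood below the other 9 libraries, yet the tests over both strata did not pass: knockout against wild type within treatment gave −0.26 on the log2 scale (exact permutation test over 400 assignments, two-sided, adjusted p = 0.11 over 10 ratio tests), made of −0.57 after MC903 and 0.05 at rest, and MC903 against untreated within genotype gave −0.20 (adjusted p = 0.17, same exact test). The ratio of Itgb1 to Itga3 was 8.78 to 11.4 in treated knockout skin and 2.94 to 3.14 in treated wild type skin, against 12.6 to 17.9 in untreated knockout skin and 12.7 to 13.9 in untreated wild type skin. The β1 chain was in excess everywhere, and least so in treated wild type skin. MC903 lowered this ratio within genotype by a log2 difference of −1.33 (−0.56 in knockout and −2.11 in wild type skin, exact permutation adjusted p = 0.010), and the genotype difference was 0.89 (1.66 after MC903, 0.11 at rest, adjusted p = 0.064, 0.030 without untreated knockout library 1 and 0.043 with a pseudocount of 1, same exact test).

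The ratio of Lamb3 to Lama3 was 1.52 to 1.70 in MC903-treated knockout skin and 1.96 to 2.16 in MC903-treated wild type skin, against 2.77 to 3.38 in untreated knockout skin and 3.18 to 5.59 in untreated wild type skin. Treated and untreated libraries did not overlap. The fall with MC903 had nearly the same size in knockout (−0.87) and wild type skin (−0.93), with a mean of −0.90 (exact permutation adjusted p = 0.010), and knockout skin was lower within treatment by −0.39 (adjusted p = 0.017, same exact test, and 0.050 and 0.057 without untreated knockout library 1 or 2). For the linkers, the ratio of Dst to Plec was 0.305 to 0.332 in treated knockout and 0.361 to 0.376 in treated wild type skin, against 0.378 to 0.438 in untreated knockout and 0.445 to 0.698 in untreated wild type skin. The groups did not overlap, MC903 lowered the ratio by −0.50 and knockout skin was lower than wild type skin by −0.36 within treatment (exact permutation adjusted p = 0.010 for each, the second 0.064, 0.057 and 0.067 without untreated knockout library 1, 2 or 3). The ratio of Cd151 to Itga3 was 2.35 to 2.90 in treated knockout and 1.32 to 1.40 in treated wild type skin, against 4.45 to 5.80 in untreated knockout and 5.44 to 7.53 in untreated wild type skin, a fall with MC903 of −1.56 (exact permutation adjusted p = 0.010). Its genotype difference was 0.34 (0.97 after MC903, −0.30 at rest, adjusted p = 0.17, same exact test). The smallest p these tests can give is 0.005 before adjustment.

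**Figure D4:**
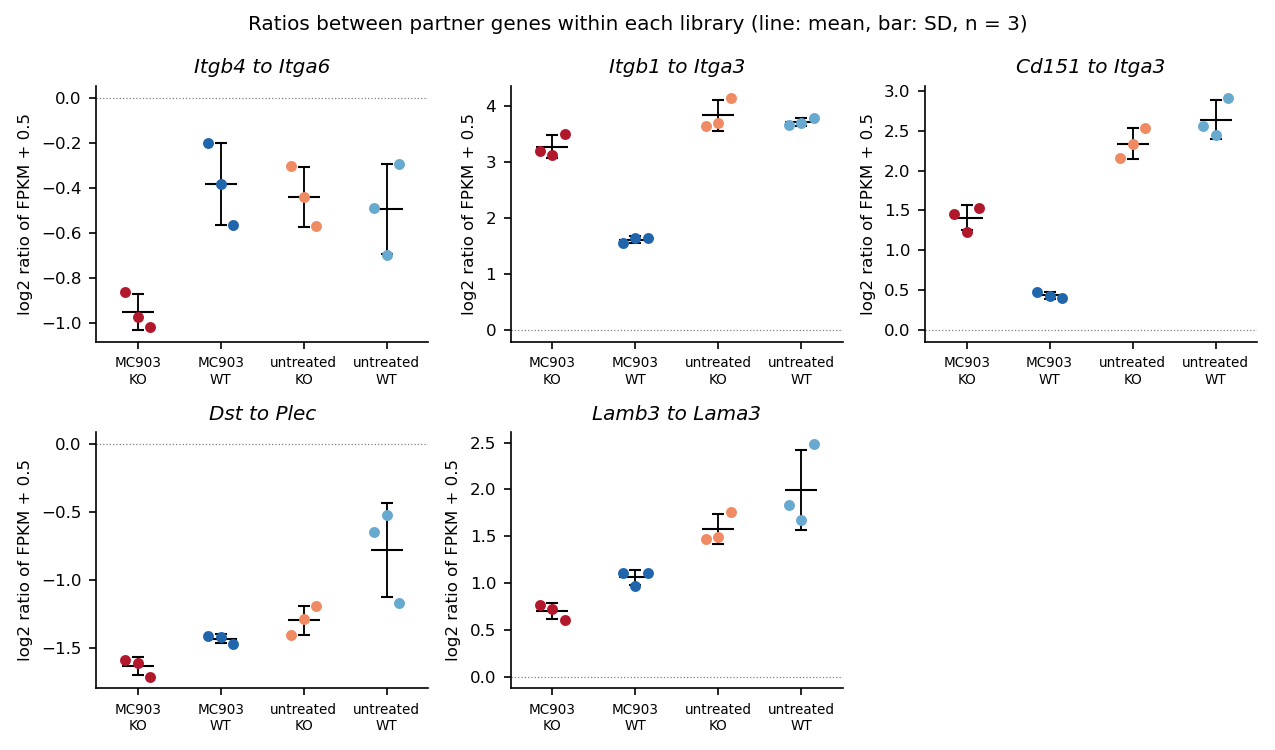
Log2 ratios of FPKM + 0.5 between partner genes (vertical axes) in each of the 12 libraries, with group means as lines and SD as bars (n = 3; KO, knockout; WT, wild type). Itgb4 to Itga6 is lowest in MC903-treated knockout skin, Itgb1 to Itga3 and Cd151 to Itga3 are lowest in MC903-treated wild type skin, and Lamb3 to Lama3 is lower in each treated than in each untreated library.

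Of 10 other partners of the complex, 3 rose, 4 fell and 3 did not pass with MC903 in knockout skin, and 6 rose, 2 fell and 2 did not pass in wild type skin, with medians of −0.25 and 0.87. Of all genes tested, 25% rose and 23% fell in knockout skin, and 32.6% rose and 30.3% fell in wild type skin. After MC903, 1 partner was higher, 7 were lower and 2 did not pass in knockout against wild type skin (median −1.02), and 6 of the 10 responses differed between genotypes, all lower in knockout skin. Of all genes, 25.9% were higher and 26.1% lower after MC903, and 20% had a higher and 19.7% a lower response. Col17a1, the collagen XVII of the hemidesmosome, had 44.9 ± 6.86 FPKM in treated knockout and 117 ± 13.8 FPKM in treated wild type skin, against 76.6 ± 5.69 in untreated knockout and 73.6 ± 11.3 in untreated wild type skin. Its change with MC903 was −0.77 ± 0.14 in knockout (adjusted p = 0.0011) and 0.67 ± 0.14 in wild type skin (adjusted p = 0.0016). Col7a1, which forms the anchoring fibrils beneath the basement membrane, had 1.93 ± 0.20 FPKM in treated knockout and 7.57 ± 2.02 in treated wild type skin, against 7.97 ± 1.17 in untreated knockout and 3.26 ± 0.29 in untreated wild type skin. It fell with MC903 in knockout skin (−1.79 ± 0.16, adjusted p = 9.6e-06), rose in wild type skin (1.08 ± 0.16, adjusted p = 0.00014) and was higher in knockout than in wild type skin at rest (1.17 ± 0.16, adjusted p = 0.0023). Both collagens thus changed in opposite directions in the genotypes, as Itgb1 did with the reverse signs. Krt14, a keratin that plectin and BP230 bind, rose in knockout (1.62 ± 0.19, adjusted p = 5.9e-05) and in wild type skin (3.80 ± 0.19, adjusted p = 5.3e-08). Its filament partner Krt5 rose in wild type skin (1.81 ± 0.19, adjusted p = 8.5e-06), while its change in knockout skin was −0.32 ± 0.19 (adjusted p = 0.18).

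The other matrix and adhesion genes were mixed. Of 20 other basement membrane genes tested, 1 rose and 12 fell with MC903 in knockout skin (median −0.45), and 3 rose and 16 fell in wild type skin (median −0.93). Knockout skin was higher than wild type skin in 13 and lower in 3 of these after MC903 (median 0.86), and higher in 11 and lower in none at rest (median 0.54). Of all genes tested, 25% rose and 23% fell with MC903 in knockout skin, and 32.6% rose and 30.3% fell in wild type skin. At rest 7.15% of all genes were higher and 4.55% lower in knockout skin. Lama4, a laminin chain of vessels, fell with MC903 in wild type skin (−1.73 ± 0.10, adjusted p = 9.6e-08) and was higher in knockout than in wild type skin after MC903 (1.49 ± 0.10, adjusted p = 2.1e-06). Lama5, the laminin α5 chain, and Bcam, a laminin receptor, were picked out after their values were seen, because they were lower in knockout than in wild type skin after MC903, as Itgb4 was. Lama5 rose with MC903 in wild type skin (0.63 ± 0.11, adjusted p = 0.00042), with a change of 0.13 ± 0.11 in knockout skin (adjusted p = 0.35), and differed by −0.49 ± 0.11 between the genotypes after MC903 (adjusted p = 0.0032). For Bcam that difference was −1.08 ± 0.09 (adjusted p = 7.8e-06). Nidogen 2 (Nid2) had 10.2 to 14.6 FPKM in treated knockout and 1.70 to 2.91 in treated wild type skin, against 14.2 to 16.5 in untreated knockout and 8.05 to 9.62 in untreated wild type skin. After MC903, 25.9% of all genes tested were higher and 26.1% lower in knockout than in wild type skin. Of 15 other integrin genes, 9 were higher and 1 lower there, and of 15 focal adhesion adaptors tested 13 were higher and none lower. Itga9 was among them at 10.5 ± 1.21 FPKM in treated knockout and 1.90 ± 0.28 in treated wild type skin (2.20 ± 0.20, adjusted p = 1.2e-05), and so was the adaptor talin 1 (Tln1) at 35.6 ± 1.87 and 14.4 ± 1.30 FPKM (1.28 ± 0.10, adjusted p = 5.1e-06). Itgb1, the partner of many of these α chains, was higher there too, and its assignment to one α chain cannot be read from RNA levels.

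Set against markers of basal keratinocytes, the cells that bear hemidesmosomes, 3 of the 9 genes had a lower relative level with MC903. A relative level also drops where the markers rise and the gene itself does not change. The mean log2 level of 8 markers was 7.01 ± 0.21 in MC903-treated knockout and 8.33 ± 0.18 in MC903-treated wild type skin, against 6.78 ± 0.14 in untreated knockout and 6.51 ± 0.18 in untreated wild type skin (SD, n = 3). After MC903, 26.1% of all genes tested were lower and 25.9% higher in knockout than in wild type skin. Of the 8 markers, 7 were lower there and none was higher. Relative to them, 3 of 18 tests passed, all for MC903 against untreated skin within genotype: Plec by −1.14, Dst by −1.64 and Lamb3 by −1.49 on the log2 scale (exact permutation test, adjusted p = 0.030 for each over the 18). For Plec this was lost without untreated knockout library 1 (−1.12) or 3 (−1.13), each with an exact adjusted p of 0.060. Other genes passed for MC903 in some settings. These were Cd151 (−1.325, exact adjusted p = 0.0225) and Lama3 (−0.63, 0.036) without MC903 knockout library 3, and Itgb4 (−0.44, 0.045) without untreated knockout library 2. With Krt5 and Krt14 alone as markers, Itgb4 (−1.12), Cd151 (−1.97) and Lama3 (−1.295) passed, at 0.015 each, as did Itgb1 (−1.74, 0.039). Itgb4 changed by −0.41 relative to the markers with MC903 (−0.05 in knockout and −0.77 in wild type skin, exact adjusted p = 0.090) and by 0.03 between genotypes (exact adjusted p = 0.84). Its difference between genotypes after MC903 was 0.39 on this scale, beside −0.93 before the markers were subtracted. The other 4 genes that were lower in knockout skin after MC903 also had positive differences there relative to the markers, of 0.96 for Itga6, 0.51 for Itga3, 0.90 for Lama3 and 0.53 for Lamb3. So did the genes that were not lower, with 1.35 for Plec, 1.14 for Dst, 1.48 for Cd151 and 2.17 for Itgb1. The marker mean itself was lower in treated knockout skin, so a gene that did not change at all also comes out positive. These signs are therefore not particular to the 9 genes. Averaged over the genotypes, Itga3 alone of the 9 had a positive difference with MC903 relative to the markers (0.30, 0.64 in knockout and −0.04 in wild type skin, exact adjusted p = 0.14), and it turned negative (−0.41) when Krt5 and Krt14 alone served as markers, with which 7 of 18 tests passed. Within knockout skin Itga6 (0.46) and Itgb1 (0.085) were positive as well.

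**Figure D5:**
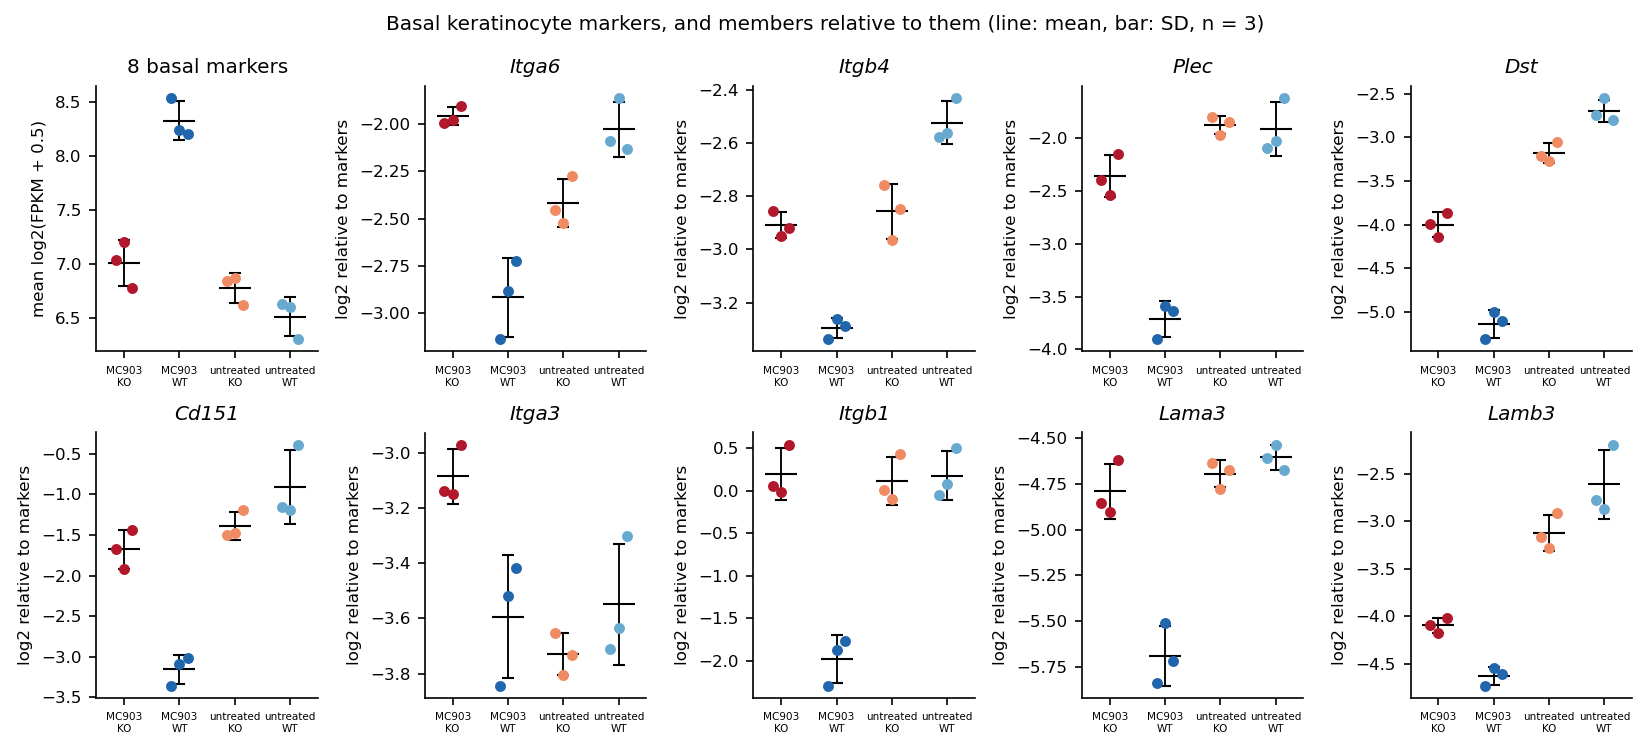
Mean log2(FPKM + 0.5) of 8 basal keratinocyte markers (first panel) and log2 level of each of the 9 genes relative to that mean (other panels) in the 12 libraries, with group means as lines and SD as bars (n = 3; KO, knockout; WT, wild type). The markers are highest in MC903-treated wild type skin, and relative to them the mean of every gene but Itga3 is lowest in that group.

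Genes with the pattern most like that of Itgb4 over the 12 libraries, among 8111 genes with a mean of at least 5 FPKM, were Aldh3b2 (Pearson r of log2 values 0.986), Plcd1 (0.985), Als2cl (0.985), Atad3a (0.982) and Ddx39b (0.980). Those most like Lamb3 were Rnf167 (0.978), Slc25a38 (0.971), Acaa2 (0.968), Kctd2 (0.963) and Emc9 (0.961). Aldh3b2 had mean levels of 40.0 FPKM in MC903-treated knockout and 95.6 FPKM in MC903-treated wild type skin, against 34.8 FPKM in untreated knockout and 33.9 FPKM in untreated wild type skin. Rnf167 had 9.30 and 18.2 FPKM in treated knockout and wild type skin, against 17.5 and 20.0 FPKM in the untreated knockout and wild type libraries. These are descriptions over libraries that share the 4 groups, and no p was computed.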

How the data were processed

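The deposited skin table gave FPKM values per gene for 12 libraries of poly-A RNA, and the authors counted reads per gene with featureCounts on mm10, per the submitters' processing notes. Which aligner, annotation release and FPKM tool were used is not given in the sources used here. FPKM times gene length gave whole reads in every library for 100% of values within 0.01, with totals of 16869716 to 18485698. The denominators were 0.917 to 1.11 times these totals and within 0.57% of median-of-ratios size factors, so the deposited values were already scaled between libraries.

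Genes with at least 0.5 FPKM in at least 3 libraries, 17646 in number, were fitted with limma 3.58.1 (R 4.3.3) on log2(FPKM + 0.5), which understates changes of low genes, with a mean trend, 4 groups and 8 residual degrees of freedom. Adjusted p-values are Benjamini-Hochberg within a comparison, two-sided, and come from limma unless called exact. Ratios and levels relative to basal keratinocyte markers were tested by exact permutation within the other factor, over 400 assignments. The labels name no batch.

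The 9 genes and all gene lists were chosen with earlier results of these data known. Named genes were the 9 in every comparison, up to 4 passing genes of each list by adjusted p, and the 5 most like Itgb4 or Lamb3. Some changes of Col17a1, Col7a1, Krt5, Lama5 and Bcam that this rule does not name were added after their values were seen. One listed gene is not reported here. The 9 had the same positions in GENCODE vM21. Alternatives were pseudocounts of 0.1 and 1, other filters, 2 scalings, voom on the recovered reads, the replicate block, fits of the compared groups alone, library weights, robust moderation, and each library left out, with total-read scaling added after the data were seen. The replicate numbers were not taken to pair the libraries.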

Additional observations from a re-analysis of the deposited data

Results flagged for a closer look

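The response to MC903 differed between the genotypes, by a test of the difference itself (limma, knockout response minus wild type response on the log2 scale), for 5 of the 9 genes. Of all genes tested 39.7% were called, 20% with a higher and 19.7% with a lower response in knockout skin. The difference was −0.90 for Itga3, −0.87 for Itgb4, −0.61 for Lama3, −0.55 for Lamb3 and 0.64 for Itgb1. For Itga3, Itgb4 and Itgb1 it kept its direction and its call under each of 22 alternatives. For Lama3 and Lamb3 the alternatives that ended the call are given with their values above. For Itga3 both genotypes rose, for Itgb4 and Lama3 wild type skin rose and knockout skin did not pass, for Lamb3 knockout skin fell and wild type skin did not pass, and for Itgb1 knockout skin rose where wild type skin fell. Basal keratinocyte markers moved in the same libraries, with 7 of 8 differing in response between the genotypes, all lower in knockout skin, as did 8 of 8 suprabasal keratinocyte markers, all lower too, and their part in these differences was not tested.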

How the results depend on the processing

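Of 45 tests of a member in a comparison, 25 passed, 16 of these passed under every alternative run, and none of the 25 changed sign. With the replicate block 11176 genes passed for MC903 in wild type skin, 8471 for MC903 in knockout skin, 2124 between genotypes at rest, 9304 between genotypes after MC903 and 7046 for the difference of responses, and no member's call changed. Same-numbered libraries deviated together with a correlation over 0.1 in 1 of 12 pairs (−0.13 to 0.141). Libraries with unlike numbers ranged from −0.186 to 0.167. These correlations cannot decide whether the numbers pair the libraries, and the labels state no pairing. Under TPM scaling 5 members fell with MC903 in wild type skin, 3 were higher and 3 lower between genotypes after MC903, and 2 responses were higher and 2 lower in knockout skin. Total-read scaling gave 3 members lower between genotypes after MC903, 2 higher responses and 0 members higher at rest. At rest a fit of the compared groups alone called 0 members higher and 613 genes, and library weights called 2 higher, 2 lower and 6548 genes, with 2 higher responses. With Krt5 and Krt14 alone 7 tests relative to markers passed.

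Leaving out 1 library at a time gave, with MC903 in wild type skin, 4 members higher, 2 to 4 lower and 10169 to 11230 genes. In knockout skin it gave 2 to 3 higher, 2 to 3 lower and 6784 to 9292 genes, at rest 0 to 1 higher, 0 to 1 lower and 752 to 3562 genes (752 without untreated knockout library 2, 831 without library 1, 1176 without library 3, 1149 and 3562 without untreated wild type library 2 or 3), after MC903 1 to 2 higher, 3 to 5 lower and 7889 to 9978 genes, and for the difference of responses 1 to 2 higher, 3 to 5 lower and 5773 to 8003 genes. Of the partner ratio tests 4 to 6 passed, and of those relative to markers 2 to 5.

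Signs turned for values that had not passed. Under TPM scaling these were the Itga6 difference of responses (0.036), Itgb4 (−0.012) and Lama3 (−0.042) with MC903 in knockout skin, Plec with MC903 in wild type skin (−0.44) and Dst between genotypes after MC903 (0.10). Plec with MC903 in wild type skin was −0.18 with total reads, and −0.0029 (without untreated wild type library 1) to 0.067 over the libraries left out. Between genotypes at rest Itga6 was 0.0075 without untreated wild type library 2 (lowest −0.28) and Itgb4 0.0090 without untreated knockout library 3 (lowest −0.15). After MC903 Plec was −0.0010 without MC903 wild type library 3 (highest 0.039 with a library left out, but 0.32 under TPM scaling, where it passed). The Dst difference of responses was −0.013 without MC903 wild type library 3 and −0.0056 or −0.089 without untreated wild type library 1 or 2 (highest 0.18 with a library left out, and 0.30 over all alternatives). Relative to markers, Itga3 with MC903 was −0.41 with Krt5 and Krt14 alone, and Lamb3 between genotypes was −0.0081 with a pseudocount of 0.1 and −0.0086, −0.015, −0.040, −0.030 and −0.053 (highest 0.12) without MC903 knockout library 3, MC903 wild type library 1, untreated knockout library 3 and untreated wild type libraries 1 and 2. The causes were not tested. With 3 libraries a group, the counts at rest changed with the libraries used and with their weighting. Over all genes, untreated wild type library 3 stood furthest from its group. The chi-square of read counts per degree of freedom was 44.9 and 60.1 against libraries 1 and 2. Between other libraries of a group it was 6.46 to 28.5.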
